A study of Drosophila melanogaster with 2 samples.

Results

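The 9 genes described here are heat shock protein genes and their regulator in Drosophila melanogaster, read in a chromatin immunoprecipitation sequencing (ChIP-seq) map of Taf1 in embryos. They were chosen by name from 13968 protein-coding genes on the chromosome arms. The 9 are the small heat shock protein genes Hsp22, Hsp23, Hsp26 and Hsp27 of the cluster at cytological position 67B, the inducible Hsp70-family gene Hsp68, the constitutively expressed chaperone genes Hsp83, Hsc70-3 and Hsc70-4, and Hsf, which encodes the heat shock transcription factor. The material was whole embryos aged 0 to 24 h of the Taf1-GFP strain, whose transgene inserts an eGFP-tagged Taf1, and the tagged protein was pulled down through its GFP. All samples formed 1 group of 2 biological replicates, both of this strain and age, and sex was not recorded. The labels name no heat treatment, and a control experiment that they name as possible was not used here, so every value below describes the same kind of sample. Whole embryos of all ages in the interval were pooled, and a weak peak cannot be told apart from a strong peak in few cells or at few ages.

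In flies as in other animals, heat and other protein-damaging stresses switch on heat shock genes through the heat shock factor, which binds repeats of the pentamer NGAAN called heat shock elements. Heat shock promoters are textbook examples of genes at which RNA polymerase II initiates before stress and pauses just downstream of the start site, with the general transcription factor TFIID, whose largest subunit is Taf1, and the GAGA factor already in place. The small heat shock proteins hold unfolding proteins without using ATP, and in Drosophila their genes are also switched on during normal development by the steroid hormone ecdysone, whereas Hsp83 (the fly Hsp90) and the Hsc70 proteins fold client proteins in unstressed cells.

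A gene was counted as occupied when a peak summit lay within 500 bp of any of its annotated transcription start sites (TSSs). Offsets are in the direction of the gene, negative upstream, and coordinates are on dm6 (release 6). The sequences below, from the RefSeq genome, are those on which the results turn: the strongest peak among these genes, a small heat shock promoter whose summit lies beside heat shock elements, upstream sequences of genes with and without a thresholded summit, and a peak away from any TSS. Capitals mark matches to the dimeric heat shock element GAANNTTC or TTCNNGAA and to the TATA box letters TATAAA, at any position. Each sequence runs 5′ to 3′ on the strand of the gene. The Hsp27 sequence is its whole peak (3L:9383797-9384013, plus strand), and the Hsp26 sequence is the part of its peak upstream of the outer TSS (3L:9377428-9377669, minus strand). Those of Hsp23 (3L:9381682-9381881, plus strand), Hsp68 (3R:24057311-24057510, minus strand), Hsc70-4 (3R:15242487-15242686, plus strand) and Hsp83 (3L:3192769-3192968, plus strand) are the 200 bases before the most upstream TSS. The Hsp83 intron sequence is a summit with 100 bases to each side (3L:3194183-3194383, plus strand).
Hsp27 peak: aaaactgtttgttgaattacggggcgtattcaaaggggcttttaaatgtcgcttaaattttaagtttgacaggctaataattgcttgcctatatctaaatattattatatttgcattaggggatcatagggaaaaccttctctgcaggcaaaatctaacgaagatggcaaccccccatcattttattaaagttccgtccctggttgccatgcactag
Hsp26 upstream: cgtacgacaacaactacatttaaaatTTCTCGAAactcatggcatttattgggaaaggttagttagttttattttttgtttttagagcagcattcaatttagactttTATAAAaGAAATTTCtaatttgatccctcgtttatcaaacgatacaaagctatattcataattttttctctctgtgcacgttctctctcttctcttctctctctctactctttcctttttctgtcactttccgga
Hsp23 upstream: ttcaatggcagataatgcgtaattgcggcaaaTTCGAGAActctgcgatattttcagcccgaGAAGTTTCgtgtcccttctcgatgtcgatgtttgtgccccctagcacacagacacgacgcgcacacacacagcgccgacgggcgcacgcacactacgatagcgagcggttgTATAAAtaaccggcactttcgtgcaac
Hsp68 upstream: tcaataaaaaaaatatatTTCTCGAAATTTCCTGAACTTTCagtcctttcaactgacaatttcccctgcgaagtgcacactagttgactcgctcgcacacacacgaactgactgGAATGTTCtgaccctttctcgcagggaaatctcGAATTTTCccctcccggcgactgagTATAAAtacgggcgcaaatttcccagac
Hsc70-4 upstream: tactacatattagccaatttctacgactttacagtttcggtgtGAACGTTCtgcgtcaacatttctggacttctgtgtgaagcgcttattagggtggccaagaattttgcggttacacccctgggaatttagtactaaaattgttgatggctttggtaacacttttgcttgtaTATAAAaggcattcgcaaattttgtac
Hsp83 upstream: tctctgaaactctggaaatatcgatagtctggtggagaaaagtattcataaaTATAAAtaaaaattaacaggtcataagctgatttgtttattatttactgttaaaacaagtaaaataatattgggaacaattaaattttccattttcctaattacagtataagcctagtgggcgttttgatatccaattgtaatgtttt
Hsp83 intron peak: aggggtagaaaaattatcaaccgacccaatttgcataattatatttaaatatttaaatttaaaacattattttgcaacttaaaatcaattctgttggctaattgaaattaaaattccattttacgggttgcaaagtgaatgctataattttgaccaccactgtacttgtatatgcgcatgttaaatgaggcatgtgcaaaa
The Hsp27 peak and the Hsp83 intronic window hold no match to either motif. The Hsp68 sequence holds 6 heat shock elements, some of them overlapping in a run with 3 trimeric matches, and a TATA box. The Hsp23 sequence holds 2 elements and the Hsc70-4 sequence 1, each with a TATA box, while the Hsp83 sequence has a TATA match but no heat shock element.

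In the authors' larger pooled thresholded list (2658 peaks on the arms), 4 of the 9 genes were occupied: Hsp22, Hsp26, Hsp27 and Hsp83. Over all protein-coding genes 13.2% were occupied in this list. The same 4 were occupied in the conservative pooled list, against a background of 11.4%. In the thresholded list of replicate 1 (background 7.23%), 3 were occupied: Hsp26, Hsp27 and Hsp83. In that of replicate 2 (background 10.6%), 3 were occupied as well, but Hsc70-4 stood beside Hsp27 and Hsp83 in place of Hsp26. Hsp27 and Hsp83 were thus the 2 genes with a promoter summit in every thresholded list, and Hsp23, Hsc70-3, Hsp68 and Hsf had none in any of them. The pooled ranked list is the authors' relaxed list of 60203 peaks on the arms, most of them not past any threshold. In it 8 of the 9 genes had a promoter summit, all but Hsp68, where 56.6% of all protein-coding genes did. The conservative ranked list gave 6 of 9 (background 51.4%), that of replicate 1 gave 6 (49.7%) and that of replicate 2 gave 6 (64.2%).

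The count of 4 changed little with the counting rule. A window of 250 bp gave 3 of 9 in the pooled thresholded list (10.7% of all genes), without Hsp22, and a window of 1000 bp gave 4 (15.4%). Giving each summit to its nearest TSS gave 4 (9.66%), and counting any overlap of the peak with the window gave 4 (14.1%). The global irreproducible discovery rate (IDR) is the estimated share of peaks that would not recur between the compared sets of peaks. Which sets were compared for each list is not given in the sources used here. Pooled ranked peaks at a global IDR of 0.01 or less gave 4 (13.5%), and at 0.001 or less 3 (9.93%), without Hsp26. When summits in the gene body counted as well, the pooled thresholded list gave 4 (16.8%) and the conservative list 4 (14.6%). Replicate 1 then gave 3 (9.41%) and replicate 2 gave 4 (13.8%), with Hsp22 added. In the ranked lists this wider rule gave 8 in the pooled (75.3%), 6 in the conservative (67.9%), 7 in replicate 1 (67.3%), with Hsf added, and 6 in replicate 2 (80.8%).

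**Figure D1:**
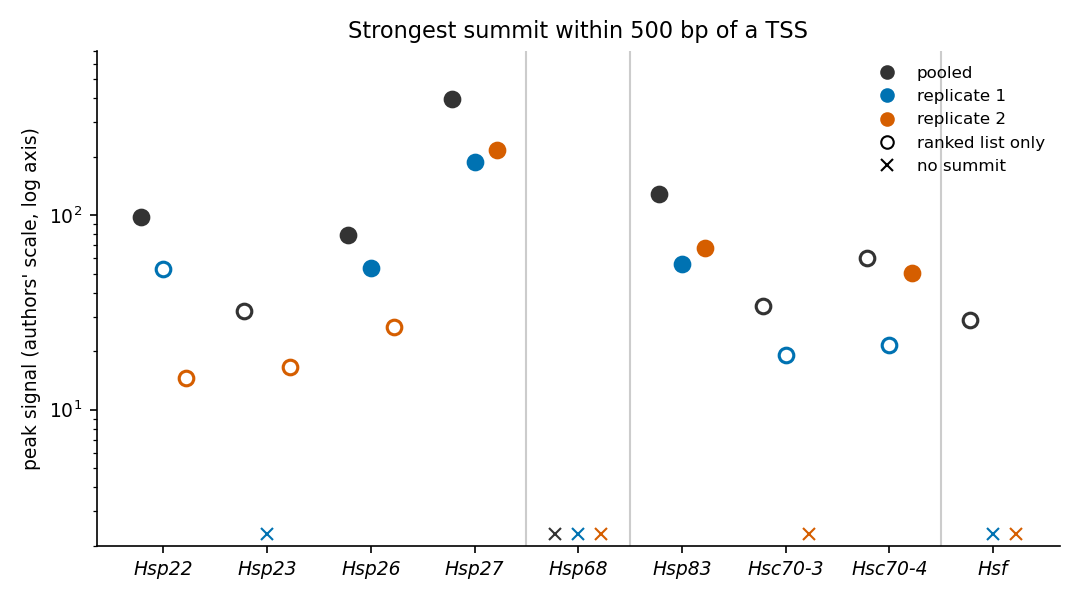
Strongest summit within 500 bp of a TSS of each gene, as peak signal on the authors' scale (log axis), in the pooled reads, replicate 1 and replicate 2; filled points are in a thresholded list, open points only in a ranked list, and crosses mark genes with no summit in the window. Hsp27 stands above the other genes in all 3 sets and Hsp68 has no point. The replicate 2 point of Hsp22 is a minor summit of signal 14.5, which also lies within 500 bp of a TSS of Hsp67Bc and of CG4456. It is shown because the main Hsp22 summit there lay 506 bp from the TSS, 6 bp outside the window.

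Hsp27, which encodes a small heat shock protein also made in unstressed tissues, carried the strongest Taf1 peak of the 9 genes. Its peak at 3L:9383797-9384013 (217 bp) lay upstream of the gene (FBgn0001226, 3L:9384063-9385694, plus strand), with the summit 170 bp before the TSS. The signal was 395.6 in the pooled list, 187.3 in replicate 1 and 216.0 in replicate 2, and the replicate summits lay at -172 and -170 bp. Both replicates thus placed a strong peak within 2 bp of the same base. The Hsp27 peak ranked 97 of 2658 in the pooled list, and 95.5% of the 1405 promoter summits had a lower signal. Among the 1850 occupied genes it was 85th, just below Trp1 at 403.5 and just above Trmt6 at 394.7. Inside the gene the pooled ranked list had weaker summits of 21.4, 12.5 and 6.9, and replicate 2 had 13.8 and 3.5, none of them thresholded.

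Most pooled peaks (84.2%) had the same width of 316 bp, but the 200 strongest peaks were narrower, with a median of 205.5 bp, and the Hsp27 peak was of this narrower kind. No other annotated TSS lay within 500 bp of its summit. None of the 7 motifs searched (dimeric and trimeric heat shock elements, TATAAA, the GAGA factor site GAGAG, the initiator TCAGT, the DRE TATCGATA and the E-box CANCTG) was found within 100 bp of the summit. Among all pooled summits, 10.5% had a dimeric heat shock element in such a window, 23.5% a TATAAA and 22.1% a GAGAG. The TATA box of Hsp27 begins 28 bp before its TSS, 142 bp downstream of the summit and outside the peak, and its only heat shock element within 500 bp begins at -338, on the other side of the peak.

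Hsp22 encodes a small heat shock protein of mitochondria. Its gene (FBgn0001223, 3L:9372931-9374964, plus strand) has 2 annotated TSSs, at 9372931 and 9373997. The pooled summit lay between them, 468 bp upstream of the second TSS and 598 bp downstream of the first, in the annotated 5′ UTR of the long transcript. The signal was 97.7 in the pooled list, 52.7 in replicate 1 and 42.4 in replicate 2. Both replicates had a peak here, but each missed the promoter count for a different reason. In replicate 1 the summit was at -468 bp but the peak was only in the ranked list, with a −log10 of the global IDR of 0.18. In replicate 2 the peak was in the thresholded list, with its summit at -506 bp, just outside the 500 bp window. Weaker summits, found only in the ranked lists, lay nearer the second TSS. They were 78 bp downstream with a signal of 17.6 in the pooled reads and 74 bp downstream with 15.4 in replicate 1. In replicate 2 the ranked summits within 500 bp of either TSS had signals of 14.5, 9.8 and 6.4.

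The Hsp22 summit lay near the upstream edge of the 500 bp window that defines promoter summits, which leaves little room for others farther upstream. Of the 1405 promoter summits, 0.854% lay farther upstream of their nearest TSS, and the quartiles of the offset were -181 and -42 bp. CG4456 (Hsp67Bb), another gene of the cluster, shares the TSS at 9372931 and so has the same summit inside its body, 598 bp from that TSS. No motif of the 7 was found within 100 bp of the Hsp22 summit. The TATA box that lies 28 bp before the second TSS begins 440 bp downstream of the summit, and heat shock elements begin at -188 and -87 bp from that TSS, also downstream of the summit.

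Hsp26, a small heat shock protein gene that is also expressed in ovaries and spermatocytes, is transcribed from the minus strand (FBgn0001225, 3L:9376418-9377427) and has TSSs at 9377375 and 9377427. Its summit was 85 bp upstream of the outer TSS. The signal was 79.3 in the pooled list, 53.3 in replicate 1 and 26.5 in replicate 2, with replicate summits at -157 and -130 bp. The replicates were further apart here than at the other 3 genes: the replicate 1 peak was in its thresholded list and the replicate 2 peak was only in the ranked list, with a −log10 global IDR of 0.13. Within 100 bp of the pooled summit lie 2 heat shock elements, 1 TATAAA and 6 GAGAG matches, some of them overlapping. Hsp26 was the only occupied small heat shock gene with any of the 7 motifs in that window. The pooled ranked list also had summits of 21.0 and 10.9 in the coding part of Hsp26, and neither was thresholded.

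Hsp23 lies between Hsp26 and Hsp27 in the cluster (FBgn0001224, 3L:9381882-9382765, plus strand) and encodes a small heat shock protein. It had no summit in any thresholded list. The nearest pooled thresholded summit was that of Hsp27, 2011 bp downstream of the Hsp23 TSS. In the ranked lists a weak summit lay 346 bp upstream, with a signal of 32.1 in the pooled reads and 16.6 in replicate 2, and none within 500 bp in replicate 1. The pooled peak ranked 11152 of 60203. The upstream sequence of Hsp23, printed above, has a TATA box beginning at -27 and heat shock elements beginning at -168 and -138. A trimeric element begins farther out, at -405.

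The cluster as a whole holds 8 protein-coding genes in 14184 bp, of which 3 had a pooled promoter summit (13.2% of all protein-coding genes). It held 3 thresholded summits in the pooled list, 2 in replicate 1 and 2 in replicate 2. Hsp67Bc, CG4456, CG4461 and Hsp67Ba, the remaining genes of the cluster, and Hsp23 had none within 500 bp of a TSS. Their strongest pooled ranked summits had signals of 27.3 at Hsp67Bc, 23.1 at CG4461 and 6.3 at Hsp67Ba, well below the 79.3 of the weakest thresholded summit in the cluster.

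**Figure D2:**
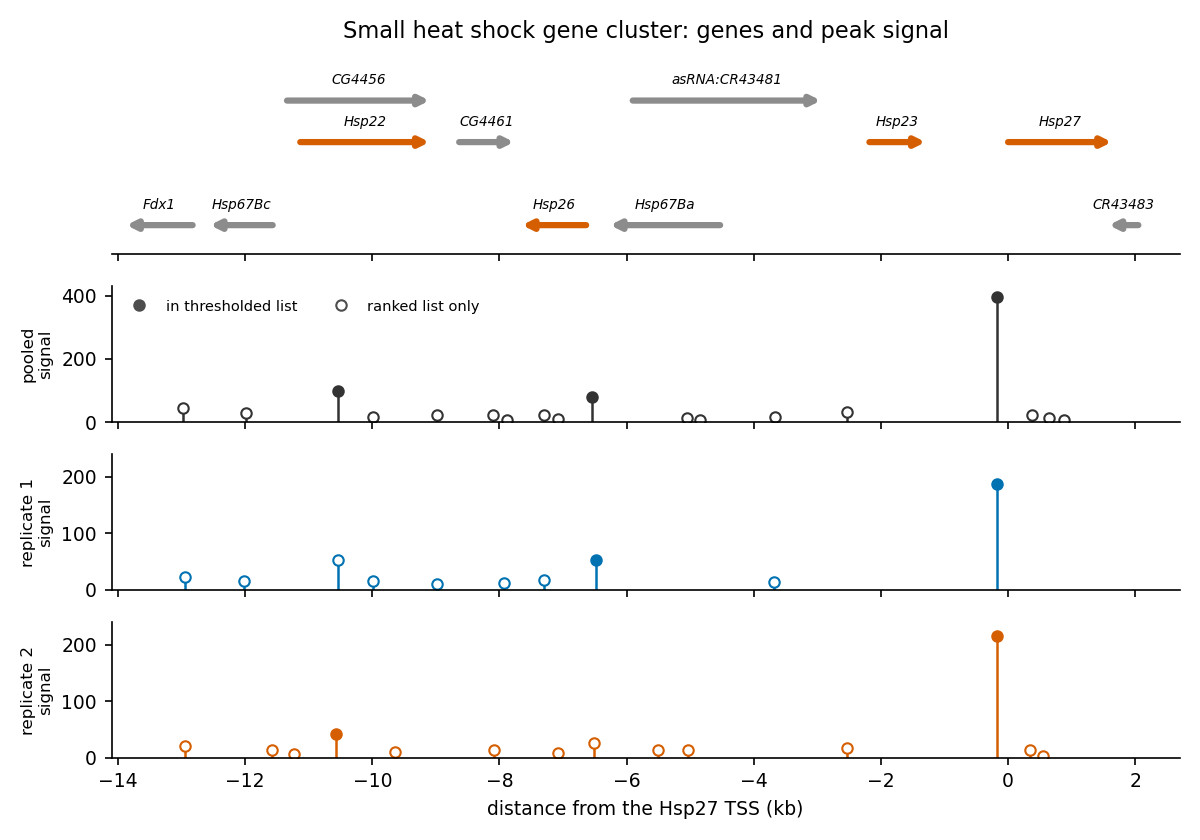
Map of the small heat shock gene cluster with the described genes in orange and other annotated genes in grey (arrows point in the direction of transcription), above the signal of every summit in the pooled, replicate 1 and replicate 2 ranked lists, against distance from the Hsp27 TSS in kb. Filled points are in the thresholded list of that set; the Hsp27 summit at 395.6 pooled, 187.3 and 216.0 stands above all other summits of the cluster in each panel.

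Hsp68 encodes a heat-inducible member of the Hsp70 family (FBgn0001230, 3R:24055080-24057310, minus strand). Alone among the 9 genes, it lacked a summit both near its TSS (500 bp) and in its body in all 8 lists. The nearest summit in the pooled thresholded list was 19473 bp away, and the nearest in the pooled ranked list was 991 bp upstream with a signal of 22.5. In the replicate ranked lists the nearest lay 2618 bp away in replicate 1 and 4380 bp in replicate 2. The Hsp68 promoter has a TATA box beginning at -28. From 250 bp before to 50 bp after the TSS it has 6 heat shock elements, some of them overlapping in a run. Hsp22, Hsp23, Hsp26 and Hsp27 had 0 to 3 per TSS, and Hsc70-4 had up to 4. At least 1 was present in 15.9% of all promoters of this length.

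Among the constitutive chaperones, Hsp83 was occupied in every list and had a further peak inside the gene. Hsp83 (FBgn0001233, 3L:3192969-3197059, plus strand) has TSSs at 3192969 and 3193216. The promoter peak at 3L:3192934-3193249 had its summit between them, 123 bp downstream of the first and 124 bp upstream of the second. Its signal was 127.9 in the pooled list, 55.9 in replicate 1 and 67.4 in replicate 2, and all 3 peaks were thresholded. A TATA box begins 30 bp before the second TSS and a heat shock element begins 68 bp before it, so that both lie downstream of the summit, 94 and 56 bp from it. Of the 1405 promoter summits, 92.2% lay farther upstream relative to their nearest TSS, because the Hsp83 summit was nearest to the first TSS by 1 bp; from the second TSS it lay at -124 bp, between the quartiles given above.

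The second Hsp83 peak lay in an intron (3L:3194125-3194440), with its summit 1067 bp downstream of the second TSS. Its signal was 146.1 in the pooled list, 71.9 in replicate 1 and 76.8 in replicate 2. This peak was higher than the promoter peak in each set, and its summits in the replicates lay at 1087 and 1079 bp. None of the 7 motifs was found within 100 bp of the pooled summit, whose sequence is the last of those printed above. Further summits in the ranked lists lay in the coding part, at 2937 bp with signals of 39.6 pooled and at 2136 bp with 32.6 pooled, and neither was thresholded.

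Hsc70-4, the main cytosolic Hsc70, which also strips clathrin from vesicles, has 6 annotated TSSs (FBgn0266599, 3R:15242687-15246614, plus strand). It was occupied in the thresholded list of replicate 2 and in no other thresholded list. There the summit lay 257 bp upstream of the first TSS with a signal of 50.5. In the pooled ranked list the strongest summit lay at -196 bp with a signal of 60.2. Its −log10 global IDR was 1.23, short of the 2 that corresponds to an IDR of 0.01. Weaker pooled ranked summits near a TSS or in the gene had signals of 30.2, 28.1, 24.7, 15.9, 7.0 and 3.5, none of them thresholded. In the replicate 1 ranked list the strongest promoter summit lay at 26 bp, with a signal of 21.6. The replicates thus differed here in both position and size. The replicate 2 summit also lay 194 bp upstream of the TSS of tefu, the divergently transcribed gene of the ATM kinase, and which of these 2 genes it belongs to cannot be told apart.

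Hsc70-3, the Hsp70 of the endoplasmic reticulum (BiP), has 4 annotated TSSs (FBgn0001218, X:11801696-11807117, minus strand) and no thresholded summit. The nearest one in the pooled list was 11480 bp upstream. In the ranked lists Hsc70-3 had a pooled summit of signal 34.1, 175 bp downstream of a TSS. Replicate 1 had a summit of 19.0 at -283 bp and a weaker one of 13.7 inside the gene, 463 bp downstream of a TSS. A further replicate 1 summit of 11.7 lay in the 3′ UTR. In replicate 2 the nearest summit of any rank lay 4636 bp away.

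**Figure D3:**
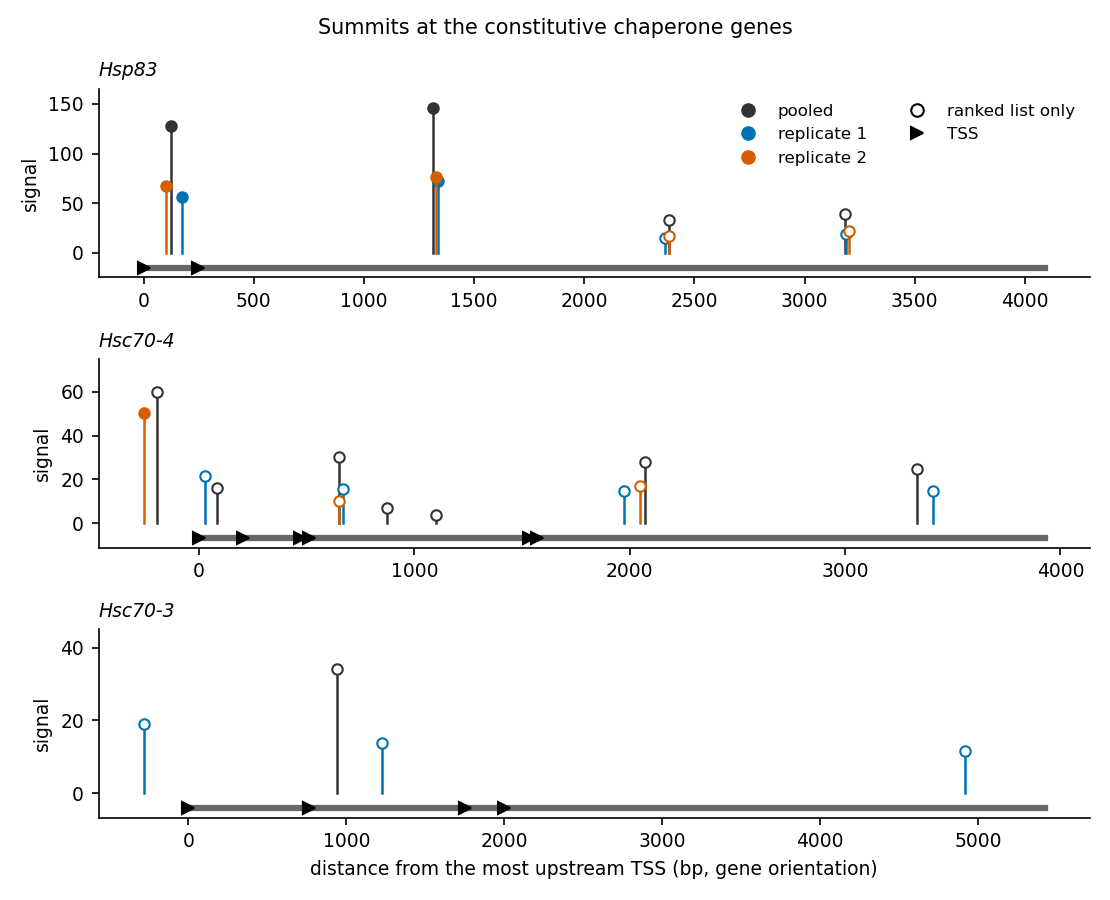
Signal of every ranked summit within 500 bp of a TSS or in the body of Hsp83, Hsc70-4 and Hsc70-3, against distance in bp from the most upstream TSS in the direction of the gene, in the pooled reads and both replicates (signal axes differ between panels). Filled points are thresholded: at Hsp83 both the promoter and the intronic peak are filled in all 3 sets, at Hsc70-4 only replicate 2 is, and at Hsc70-3 none is.

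Hsf, the gene of the transcription factor that activates heat shock genes under stress, had no summit in a thresholded list (FBgn0001222, 2R:18130303-18134634, minus strand). The nearest in the pooled thresholded list was 7268 bp away. In the pooled ranked list a summit with a signal of 28.9 lay in an intron 266 bp downstream of the TSS. Replicate 1 had only 2 weak summits in the distal part of the gene, of 13.9 and 12.9, and in replicate 2 the nearest summit lay 5350 bp away.

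Signals of the thresholded peaks were then set against the spread between replicates, as log2 of replicate 2 over replicate 1. Over the 1312 pooled promoter peaks matched in both replicates, the median log2 ratio was 0.18 and its SD 0.65. It was 0.21 at Hsp27, 0.27 at the Hsp83 promoter, 0.09 at the Hsp83 intron and -0.31 at Hsp22, all within 1 SD of the median. At Hsp26 it was -1.01, and 4.88% of the promoter peaks had a lower ratio. Hsp26 was the gene at which the replicates lay furthest apart among the 4.

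Ordered by pooled signal, the peaks ran from Hsp27 through the Hsp83 intron, the Hsp83 promoter and Hsp22 to Hsp26. The log2 difference between Hsp27 and the next peak, the Hsp83 intron, was 1.44 pooled, 1.38 in replicate 1 and 1.49 in replicate 2, more than the replicate SD of 0.65. The remaining neighbours in the order did not differ by more than that spread in the pooled signal: 0.19 between the Hsp83 peaks, 0.39 between the Hsp83 promoter and Hsp22, and 0.30 between Hsp22 and Hsp26. Between the Hsp83 peaks it was 0.36 in replicate 1 and 0.19 in replicate 2. Between the Hsp83 promoter and Hsp22 it was 0.09 in replicate 1 and 0.67 in replicate 2, the latter above the spread. Hsp22 and Hsp26 changed places in replicate 1, where the log2 difference was -0.02, while in replicate 2 it was 0.68, also above the spread.

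**Figure D4:**
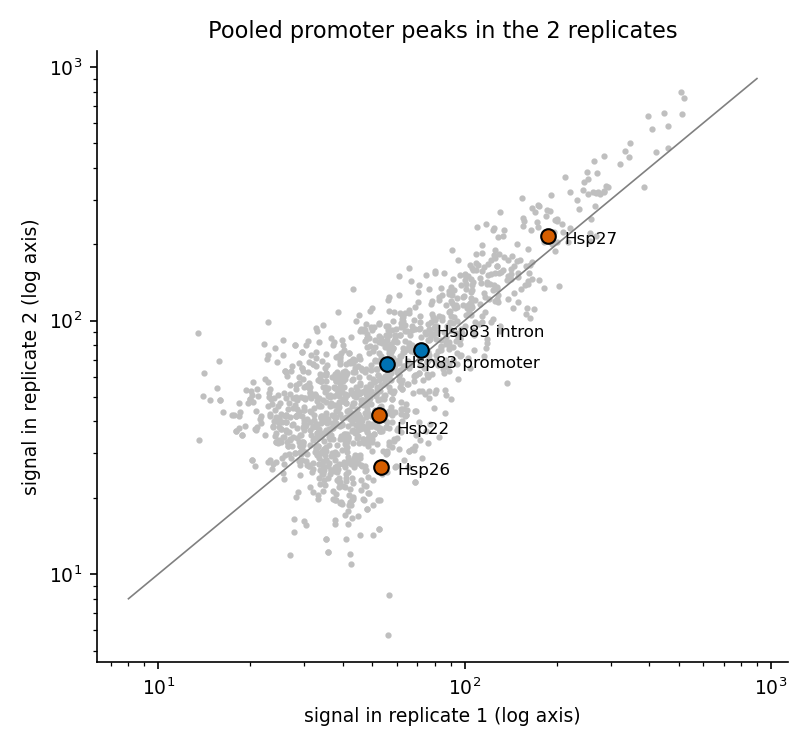
Signal of pooled promoter peaks in replicate 1 and replicate 2 (log axes; grey points are the 1312 peaks matched in both, the line marks equal signal), with the peaks of the small heat shock genes in orange and of Hsp83 in blue. Hsp27 and both Hsp83 peaks lie close to the line, while Hsp26 lies below it, at 53.3 in replicate 1 and 26.5 in replicate 2.

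The small heat shock genes and the constitutive chaperone genes were compared by count and by position. In the pooled thresholded list 3 of 4 small heat shock genes (Hsp22, Hsp26 and Hsp27) and 1 of 3 constitutive genes (Hsp83) were occupied. In replicate 1 the counts were 2 of 4 and 1 of 3. In replicate 2 they were 1 of 4 and 2 of 3, so the order turned. Over all protein-coding genes the shares were 13.2% in the pooled list, 7.23% in replicate 1 and 10.6% in replicate 2. With groups of this size the count moved with single peaks: the replicate 2 summit of Hsp22 was 6 bp outside the window, and that of Hsc70-4 lay in a shared promoter. Signal did not separate the groups either, since both Hsp83 peaks lay between Hsp27 and Hsp22.

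By position, the 3 small heat shock summits lay upstream of their nearest TSS, at -468, -170 and -85 bp, and the Hsp83 summit lay between its TSSs. A TATA box gave a common reference point for the 4 occupied genes, each of which had one beginning 28 or 30 bp before a TSS. From the pooled summit to that TATA box the distance was 94 bp at Hsp83, 109 bp at Hsp26, 142 bp at Hsp27 and 440 bp at Hsp22. The replicate summits moved this distance: it was 43 and 117 bp in replicates 1 and 2 at Hsp83, 181 and 154 bp at Hsp26, 144 and 142 bp at Hsp27, and 440 and 478 bp at Hsp22. The summit was upstream of the TATA box at all 4 genes in the pooled reads and in both replicates. Such a position was common, since the upper quartile of the offset over the 1405 promoter summits was -42 bp. The order of Hsp26 and Hsp27 differed between the pooled reads and the replicates.

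**Figure D5:**
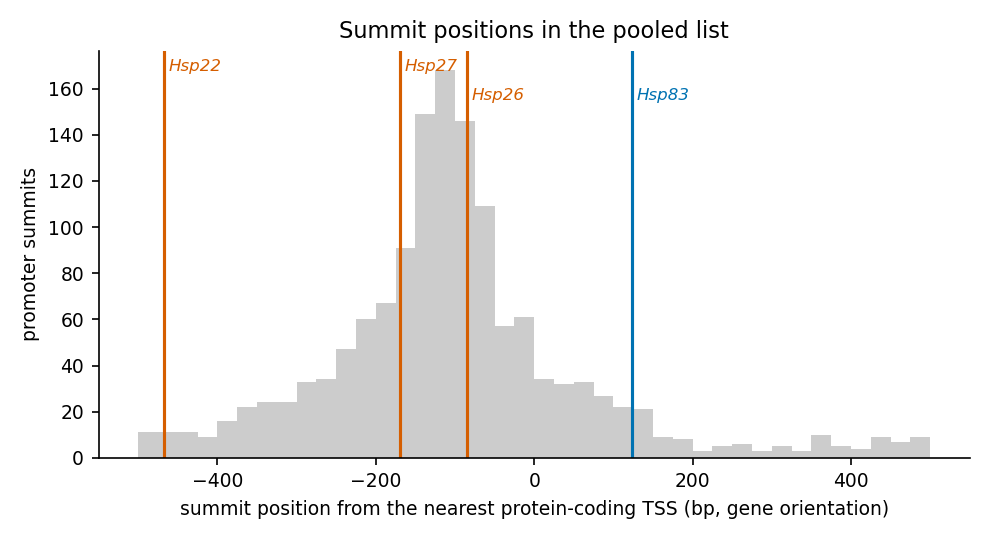
Position of the 1405 pooled promoter summits relative to the nearest protein-coding TSS, in bp and in the direction of the gene (grey histogram, 25 bp bins), with lines at the summits of the small heat shock genes (orange) and Hsp83 (blue). Hsp27 (-170 bp) and Hsp26 (-85 bp) fall in the main body of the histogram, Hsp22 (-468 bp) in its upstream tail and Hsp83 (123 bp) downstream of the TSS.

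Exact TATAAA matches at the usual distance from the TSS were common among these genes and uncommon among occupied genes at large. Other spellings of the TATA box were not searched. A TATAAA beginning 34 to 24 bp before a TSS, a range chosen after the positions at these genes were seen, was present at 7 of the 9 genes: Hsp22, Hsp23, Hsp26, Hsp27, Hsp68, Hsp83 and Hsc70-4. Hsc70-3 and Hsf had none. Among all protein-coding genes 7.72% had such a box. It was rarer among occupied genes, at 3.24% of 1850, than among the others, at 8.4% of 12118. Put the other way, 60 of the 1078 genes with the box were occupied (5.57%), and 4 of these 60 were Hsp22, Hsp26, Hsp27 and Hsp83. The 7 heat shock genes with the box divided into these 4 and Hsp23, Hsp68 and Hsc70-4, which were not occupied in the pooled list.

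The dimeric heat shock element did not separate the occupied genes from the others among the 9. A dimeric element, on either strand and from 500 bp before to 50 bp after a TSS, was present at all 9 genes, where 32.4% of all protein-coding genes had one, 36.1% of the occupied and 31.8% of the others. The longer trimeric element, a dimer followed after 2 bases by another GAA or TTC in alternation, was present at Hsp23, Hsp68 and Hsc70-4, against 0.981% of all genes, 1.46% of occupied genes and 0.908% of the others. These 3 had no summit in the pooled thresholded list, although Hsc70-4 had one in replicate 2. The occupied genes Hsp22, Hsp26, Hsp27 and Hsp83 had no trimeric element. In the shorter window of 250 bp before to 50 bp after a TSS, no dimeric element was found at Hsp27, which was occupied, or at Hsf, which was not. Genes with several TSSs, such as Hsc70-4, had more sequence searched. A match to these letters is a description of the sequence and not a measured binding site.

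The wider chaperone system was read with 8 lists of 57 genes, 56 of them protein-coding. In the pooled thresholded list 7 of the 56 were occupied (12.5%), near the 13.2% of all protein-coding genes. The Hsp70 genes proper, the classic heat-inducible genes present as 6 near-identical copies, had no thresholded summit in any list. Reads from such copies can match more than 1 place, so peaks at them are uncertain. In the ranked lists Hsp70Ba had a summit at -161 bp with a signal of 49.3 in the pooled reads, 50.2 in replicate 1 and none in replicate 2. The list of 8 other small heat shock protein genes had no summit in the pooled thresholded list (l(2)efl had one of 16.8 in replicate 2), and the 2 other Hsp90-family genes, Gp93 and Trap1, had none either.

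Among the remaining chaperones, Hsc70-5, the mitochondrial Hsp70, was occupied in the pooled list and in replicate 2 but not in the thresholded list of replicate 1, with a signal of 112.4 pooled, 37.6 in replicate 1 and 82.3 in replicate 2, at a summit shared with CG8531. The 12 chaperonin genes, which encode the folding chambers of mitochondria and the cytosol, had no summit in this list, but CCT3 had one of 76.4 in the conservative list. Occupied co-chaperones were 3 of 14, in the pooled list and in each replicate alone. All protein-coding genes gave 13.2% in the pooled list, 7.23% in replicate 1 and 10.6% in replicate 2. The J-domain gene mrj had a signal of 306.4 pooled, with 149.8 and 154.5 in the replicates. CG11267 (Hsp10), the partner of the mitochondrial chaperonin, had 259.6 pooled, with 118.1 and 142.0. CG5001, another J-domain gene, had 190.4 pooled, with 117.6 and 77.7. By pooled signal all 3 ranked above both Hsp83 peaks and below Hsp27. These differences were not set against the replicate spread, and in replicate 2 CG5001 at 77.7 was close to the Hsp83 intron at 76.8.

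The factors that control heat shock gene transcription were occupied at 3 of 10 in the pooled thresholded list, where 13.2% of all protein-coding genes were. Replicate 1 gave 2 of 10, without TH1 (7.23% of all genes), and replicate 2 gave 3 (10.6%). Trl, which encodes the GAGA factor, had a signal of 225.0 pooled, 116.5 in replicate 1 and 108.1 in replicate 2, at a summit 106 bp downstream of a TSS. Nelf-E, of the negative elongation factor that holds polymerase in the pause, had 139.3 pooled, 48.1 and 85.1 at a summit shared with RpL14. TH1, the NELF-D subunit, had 108.1 pooled, 45.2 and 60.1 at a summit shared with mei-41. The Trl peak was the only one of these 3 with no second gene within 500 bp. Elongation factor genes such as Spt5, Cdk9 and CycT had only ranked summits, of 27.9, 21.6 and 19.6 pooled.

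The heat-inducible noncoding RNA gene lncRNA:Hsromega showed a limit of the thresholded lists. In the ranked lists it had a promoter summit of 153.5 in the pooled reads, 92.6 in replicate 1 and 74.0 in replicate 2. The −log10 global IDR was 5.0 (the highest value the list gives), 4.36 and 4.63, past the level of 2 in each. It was nevertheless absent from every thresholded list, as were 87 of the 2745 pooled ranked peaks with a global IDR of 0.01 or less. The step that removed these peaks is not given in the sources used here. None of the 9 genes had a summit past that level that was missing from the corresponding thresholded list.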

How the data were processed

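Taf1 ChIP-seq peaks of 2 biological replicates (1 group) were read from 8 peak lists that the authors deposited, on assembly dm6 per the labels. Chromatin was sonicated to fragments of 200 to 800 bp, per the labels. Which aligner and caller made them is not given in the sources used here. According to the deposited file lists, each replicate had a ranked and a thresholded list, and the pooled reads had 2 ranked, a conservative and a larger thresholded list. Peak signal is the authors' deposited value, of unstated scale, and served to describe and rank peaks and to compare replicates at shared peaks. The −log10 of the global IDR, a score, was taken from the deposited ranked lists, where it was capped at 5.0. Summit positions were computed from the offset from the peak start that the authors deposited. In the pooled ranked lists 4 columns of per-sample signal were not used. Without read counts in the lists, the depth is unknown and no counting interval is given.

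Peaks on the arms were kept. Genes and TSSs came from Ensembl release 115 and sequence from the RefSeq release 6 genome, whose arms no peak exceeded. Motifs were searched on both strands, except TATAAA and TCAGT on the gene strand. Replicate peaks were matched to pooled peaks by an overlap of at least 1 bp, taking the strongest. The 9 genes and the 8 wider lists were chosen with earlier results of these data known, so no test was made and counts are set beside the share of all protein-coding genes. Of 68 symbols, 2 matched no single gene (CG32041 and Hsbp1) and 4 matched by synonym. Named besides the 9 were genes with a TSS within 500 bp of a main-list summit of theirs, occupied genes of the wider lists, and the genes next above and below Hsp27 in signal. Other genes, among them tefu, were named after their values were seen.

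Alternatives were windows of 250 and 1000 bp, the lists of single replicates, the conservative list, the nearest TSS only, peak overlap in place of the summit, a global IDR of 0.01 or 0.001, and, for the replicate ratio, matching by summits within 100 bp. Counting the gene body was added after seeing the data, as was the TATA window. The 500 bp window for heat shock elements was also an addition to the planned window of 250 bp before to 50 bp after the TSS. The counting functions were tested on simulated peaks. Scripts ran in Python 3.11.15, with pandas 2.3.3, numpy 2.4.6 and matplotlib 3.10.9.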

Additional observations from a re-analysis of the deposited data

How the results depend on the processing

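Counts of the 9 heat shock genes with a promoter summit were 3 or 4 in the thresholded lists, and in the pooled ranked list at a global IDR of 0.01 or 0.001, under the alternatives run. The ranked lists with no IDR limit gave 6 to 8. With a window of 250 bp the 3 were Hsp26, Hsp27 and Hsp83, and at a global IDR of 0.001 they were Hsp22, Hsp27 and Hsp83. Leaving out a replicate gave 1 to 2 of the 4 small heat shock genes, and 1 to 2 of the 3 constitutive genes, so the order of these groups turned without replicate 1. Over all protein-coding genes the count was 1010 (7.23%) without replicate 2 and 1486 (10.6%) without replicate 1. The wider lists ranged from 5 to 10 occupied genes of 56. The 5 (8.93%) were found without replicate 2. The 10 (17.9%) came with the 1000 bp window, where 15.4% of all protein-coding genes were occupied, and with peak overlap, where 14.1% were. The replicate log2 ratios were the same with matching by summits. No paired analysis was possible because there is 1 group.

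Genes whose TSSs lie close together can share a summit, as at Hsc70-4 and tefu. With 2 replicates the spread at a single gene is a pair of values. The files hold no reads, so a missing summit could not be set against a depth, and peaks at the near-identical Hsp70 copies depend on how reads were assigned to them.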
